A study of Mus musculus with 6 samples.

Results

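RNA was compared between material captured as dopaminergic neurons in En1+/- mice and in wild type mice from the pars compacta of the substantia nigra (SNpc), both 6 weeks old. En1+/- mice carry 1 working copy of Engrailed 1 (En1), and a header of the deposited comparison writes the allele as En1LacZ. Each side of the comparison is 1 library, so the pair takes 2 of the 6 samples of the series. A pair from a second experiment was set beside it, the 2 sides of the brain of wild type mice aged 8 weeks in which En2 protein had been infused on one side for 7 days. These 4 libraries were made from neurons stained for tyrosine hydroxylase and cut out with a laser. The sources used here do not say how many animals stand behind a library. Of 35049 genes in the captured files, 7774 had 100 or more reads in the pair and are called measured.

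Engrailed 1 and 2 are homeobox genes. Their proteins bind DNA through a homeodomain, act mostly as repressors of transcription, and also bind the translation initiation factor eIF4E. Both genes are expressed from early development in the neurons that make dopamine in the ventral midbrain, and those neurons need them to form and to survive. Loss of 1 En1 copy in mice is known for a slow, partial loss of SNpc dopaminergic neurons that begins in early adult life and spares more of the neighbouring ventral tegmental area (VTA).

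Counts summed to 21332308 in the En1+/- library and 16145262 in the wild type library. Mitochondrial ribosomal RNA took 58.5% of the counts in En1+/- and 74.4% in wild type. A separate sum took only the chosen transcript of each gene, that with most reads over the 4 captured libraries. It left out all mitochondrial genes, all ribosomal RNA genes and counts with no gene ID. This sum was 3272386 counts in En1+/- and 1510167 in wild type. The contralateral and infused libraries held 1908483 and 2308662 such counts. The pair was scaled by the median of the ratios between its libraries, which put the En1+/- counts at 2 times those of wild type for an unchanged gene. Levels below are scaled reads, counts divided by a factor that brings the 4 captured libraries to one scale. Sums over gene lists are in CPM, taken over the counts of chosen transcripts outside mitochondrial and ribosomal RNA genes. Neither is divided by transcript length, so levels of different genes are not comparable. Ratios are log2 of En1+/- over wild type with an exact 95% counting interval in parentheses. The interval covers counting error only, in reads that are not independent molecules. A gene passed the rule of size when it had 100 or more reads in the pair, at least a 2-fold difference (a log2 ratio beyond 1 or -1) and a counting interval clear of 0. A gene with few reads in wild type could reach that minimum only when it was high in En1+/-. With 1 library a side nothing could be tested for significance, and no difference has a replicate check.

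En1 itself was read first, beside the genotype labels. It had 47 reads in the En1+/- library against 77 in wild type. Scaled, its level was 31.7 in En1+/-, against 105 in wild type, 83.8 in the contralateral and 135 in the infused library. The library of the heterozygous mice was the lowest of the 4, and the ratio was -1.70 (-2.27 to -1.17), an interval wholly past 2-fold. Of all measured genes 22.9% were lowest in En1+/-, so this place alone is a weak check of the labels. The gene lies on GRCm38 chromosome 1 from 120602418 to 120607992, on the plus strand. The allele's name carries LacZ, and which En1 reads a LacZ allele would still give was not tested. En2, the paralog, had 31.0 scaled reads in En1+/-, against 27.2 in wild type, 68.4 in the contralateral and 30.7 in the infused library. Its interval includes 0 (0.20, -0.58 to 1.04).

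Among the 7774 measured genes, 1365 passed the rule as higher in En1+/- (17.6%) and 586 as lower (7.54%), or 1951 in either direction (25.1%). Of those, 70.0% were higher, a share that moved with how genes were admitted and scaled. With 20 or more reads asked of each library in place of 100 in the pair, 985 genes were higher and 1005 lower, a share of 49.5%. Scaled by library totals, of which mitochondrial ribosomal RNA is the larger part, 2895 were higher and 185 lower, a share of 94.0%. Between the contralateral library and wild type, a pair with both En1 copies that differs in age and experiment, 554 genes were higher (8.46%) and 461 lower (7.04%) of 6548 measured, or 1015 in either direction (15.5%). Both comparisons use the same wild type library. The shares higher and lower in En1+/- are the background for each list count below.

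Ratios spread more than counting error at every depth, in bins of reads that leave out mitochondrial and ribosomal RNA genes. For genes with 100 reads or more but fewer than 200, the interquartile range of the ratios was 1.49 (log2) in En1+/- over wild type and 1.11 in contralateral over wild type. The median counting error of 1 ratio in that bin was 0.257 and 0.246 in the same pairs. From 1000 to under 5000 reads the ranges were 0.60 and 0.57, and at 5000 or more they were 0.29 and 0.53. The share of genes past 2-fold was 36.7% under 200 reads, 15.4% from 500 to under 1000 and 1.39% at 5000 or more in En1+/- over wild type. A 2-fold ratio was thus common among genes with few reads and rare among those with many.

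**Figure D1:**
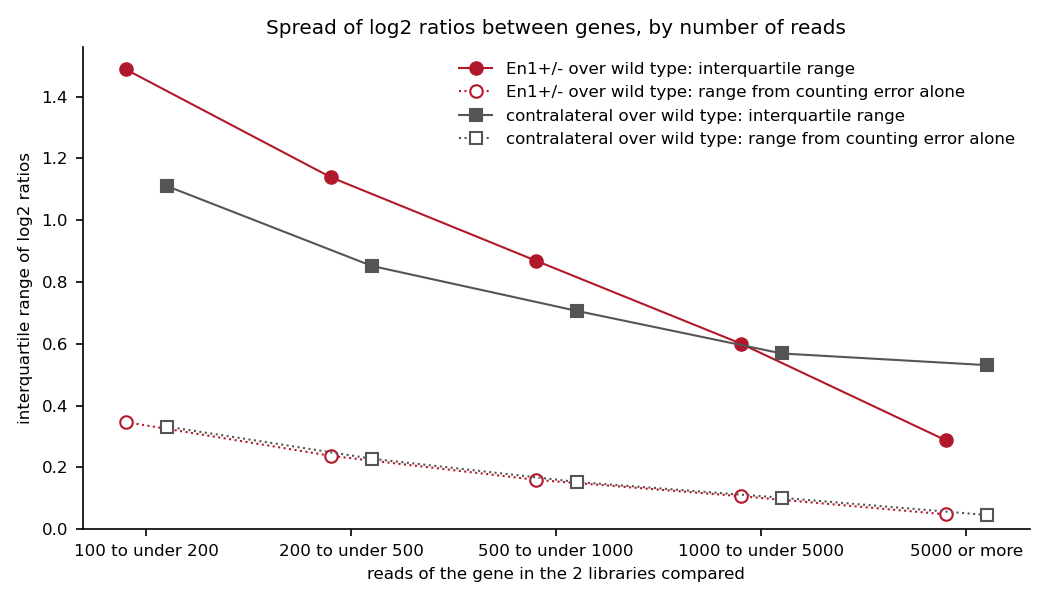
Interquartile range of log2 ratios between genes (y axis, log2 units) in 5 bins of reads in the 2 libraries compared (x axis), for En1+/- over wild type (red circles) and contralateral over wild type (grey squares). Mitochondrial and ribosomal RNA genes are left out. Open symbols give the width that counting error alone would give. The solid lines lie above the open symbols in every bin, and the red line lies above the grey one in all bins under 5000 reads.

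**Figure D2:**
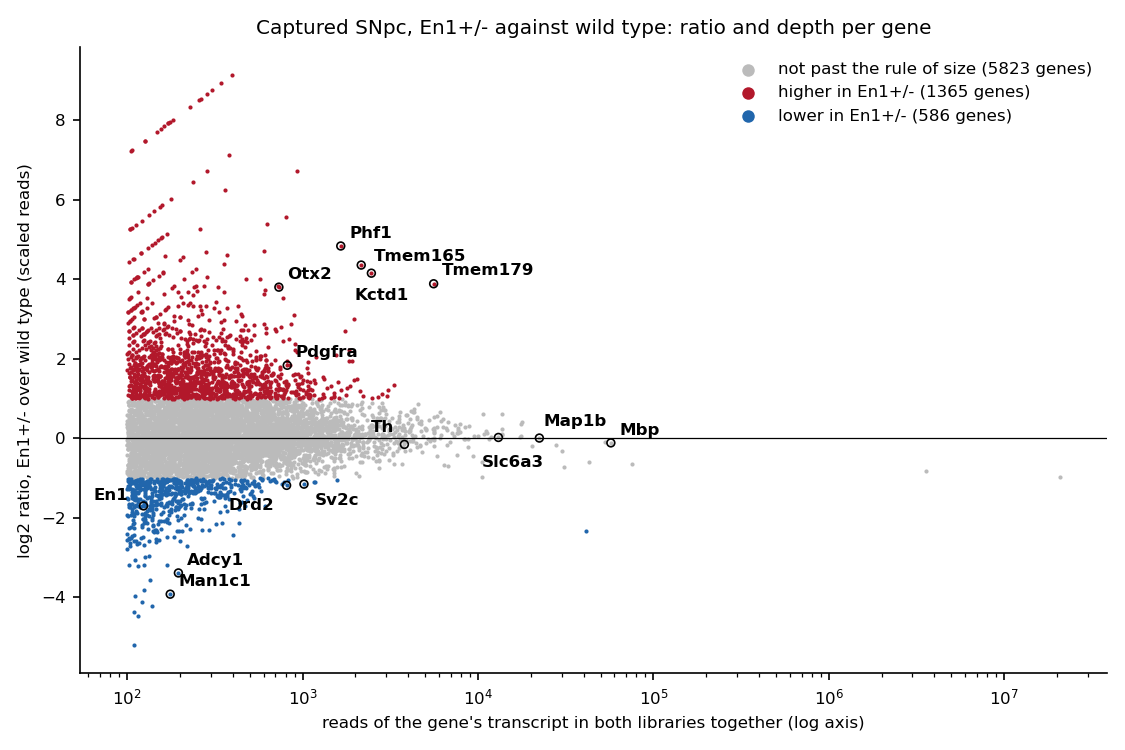
Log2 ratio of En1+/- over wild type (y axis) against reads of the gene in both libraries (log x axis), 1 point per measured gene. The 1365 genes past the rule as higher are red and the 586 lower are blue. Tmem179, Kctd1, Tmem165 and Phf1 combine over 1000 reads with ratios near 4 or above, while Th, Slc6a3, Map1b and Mbp lie close to 0.

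The midbrain dopaminergic neuron is built by a small set of transcription factors, and the largest difference among them was in Otx2. OTX2 is a homeodomain protein that patterns the midbrain and, in adults, marks VTA neurons more than SNpc neurons. It stood at 478 scaled reads in the En1+/- library, against 34 in wild type, 11 in the contralateral and 2.97 in the infused library. The heterozygous library lay far above the other 3, which were low in each case. The ratio was 3.80 (3.25 to 4.46), from 708 and 25 reads. Otx2 lies on chromosome 14 from 48657677 to 48673819. All 8 Otx2 transcripts with 50 or more reads went the same way, with ratios between 3.80 and 7.98. Some share reads, since a read can count for each transcript it overlaps.

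Engrailed and many other homeodomain proteins bind a core that reads TAATTA. Because Otx2 is the listed factor with the largest difference, its starts in RefSeq (GRCm38.p6, minus strand) were read, and 2 of 4 hold the core between 250 bases before and 50 after the start. The 250 bases before these 2 are shown, 5′ to 3′, with TAATTA in capitals. They lie at chr14:48667645-48667894 and chr14:48665110-48665359.
Otx2 upstream start: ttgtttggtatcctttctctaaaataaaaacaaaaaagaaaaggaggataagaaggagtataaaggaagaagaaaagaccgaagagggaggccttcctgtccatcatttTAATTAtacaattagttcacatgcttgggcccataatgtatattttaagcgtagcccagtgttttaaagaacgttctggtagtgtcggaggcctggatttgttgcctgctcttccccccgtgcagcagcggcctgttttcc
Otx2 downstream start: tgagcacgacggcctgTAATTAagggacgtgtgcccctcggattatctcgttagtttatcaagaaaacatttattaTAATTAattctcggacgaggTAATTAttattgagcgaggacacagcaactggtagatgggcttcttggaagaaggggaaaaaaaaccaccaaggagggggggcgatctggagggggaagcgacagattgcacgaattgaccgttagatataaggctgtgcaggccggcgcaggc
The motif is its own reverse complement, so both strands were read at once. Of genes with an entry in the table of promoters, it occurs in such a window of 300 bases at 1 start or more in 3.49% of 1061 higher in En1+/-, 4.45% of 472 lower and 3.20% of 5998 measured. Over the whole table the share was 6.12% of 27025 genes. Myt1l, a factor of the same list that did not pass the rule (-0.40, -0.70 to -0.11), also holds the core, at -149 from a start. A match is a run of letters and says nothing of binding.

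The other factors differed less. Foxa1, a forkhead factor of dopaminergic neurons, had 178 scaled reads in En1+/-, against 88.3 in wild type, 121 in the contralateral and 97.0 in the infused library. Its ratio of 1.02 (0.63 to 1.44) just passed the rule, and at 0.90 it did not when totals outside mitochondrial and ribosomal RNA set the scale. Nr4a2 encodes NURR1, the nuclear receptor that maintains expression of dopamine genes. It had 911 scaled reads in En1+/-, against 459 in wild type, 305 in the contralateral and 405 in the infused library. The heterozygous library was the highest, and the ratio of 1.00 (0.82 to 1.17) fell just short of the rule. Tcf12, which encodes an E protein partner of neurogenic factors, stood at 50.6 in En1+/-, against 147 in wild type, 118 in the contralateral and 182 in the infused library. It was lowest in En1+/-, at -1.52 (-1.97 to -1.09). Of 19 factors in the list, 12 were measured, with 2 higher (Otx2 and Foxa1), 2 lower (En1 and Tcf12) and a median of -0.25, beside 0.14 over all measured genes. That median was 0.35 with library totals as the scale and 0.21 with all transcripts of a gene summed. Pitx3, another factor of these neurons, had 4 reads in En1+/- and 3 in wild type, too few to measure.

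Dopamine itself is made by tyrosine hydroxylase (Th) and the decarboxylase Ddc, loaded into vesicles by Slc18a2, taken back by Slc6a3 and sensed by the autoreceptor Drd2. Drd2 was the one of these past the rule. Its level was 256 scaled reads in En1+/-, against 585 in wild type, 639 in the contralateral and 861 in the infused library. The heterozygous library was the lowest by over 2-fold, at a ratio of -1.18 (-1.38 to -0.98). Scaling by library totals left it at -0.58, inside 2-fold. Slc18a2 had 4061 scaled reads in En1+/-, against 6190 in wild type, 4358 in the contralateral and 4759 in the infused library. Here the wild type library stood apart as the highest, and the ratio was -0.60 (-0.65 to -0.54). Th had 1652 in En1+/-, against 1846 in wild type, 1697 in the contralateral and 2064 in the infused library, at -0.15 (-0.25 to -0.05). Slc6a3 was level in the pair, with 5913 in En1+/- and 5852 in wild type (0.02, -0.03 to 0.08).

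Aldh1a7, an aldehyde dehydrogenase, had 246 scaled reads in En1+/-, against 51.6 in wild type, 95.9 in the contralateral and 156 in the infused library, a ratio of 2.25 (1.78 to 2.78). Its near copy Aldh1a1, a marker of ventral SNpc neurons, had 3286 in En1+/-, against 2493 in wild type and 3902 and 3896 in the contralateral and infused libraries, at 0.41 (0.33 to 0.49). Counts of Aldh1a7 are uncertain, since counting may split reads between near copies, and how many were shared was not tested. Of 15 genes of dopamine synthesis, transport and breakdown, 13 were measured, with 2 higher, 1 lower and a median of 0.11. Their summed level was 8126 CPM in En1+/-, against 9394 in wild type, 9652 in the contralateral and 10561 in the infused library. In bulk samples such as these, fewer cells of a type and less RNA per cell cannot be told apart.

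**Figure D3:**
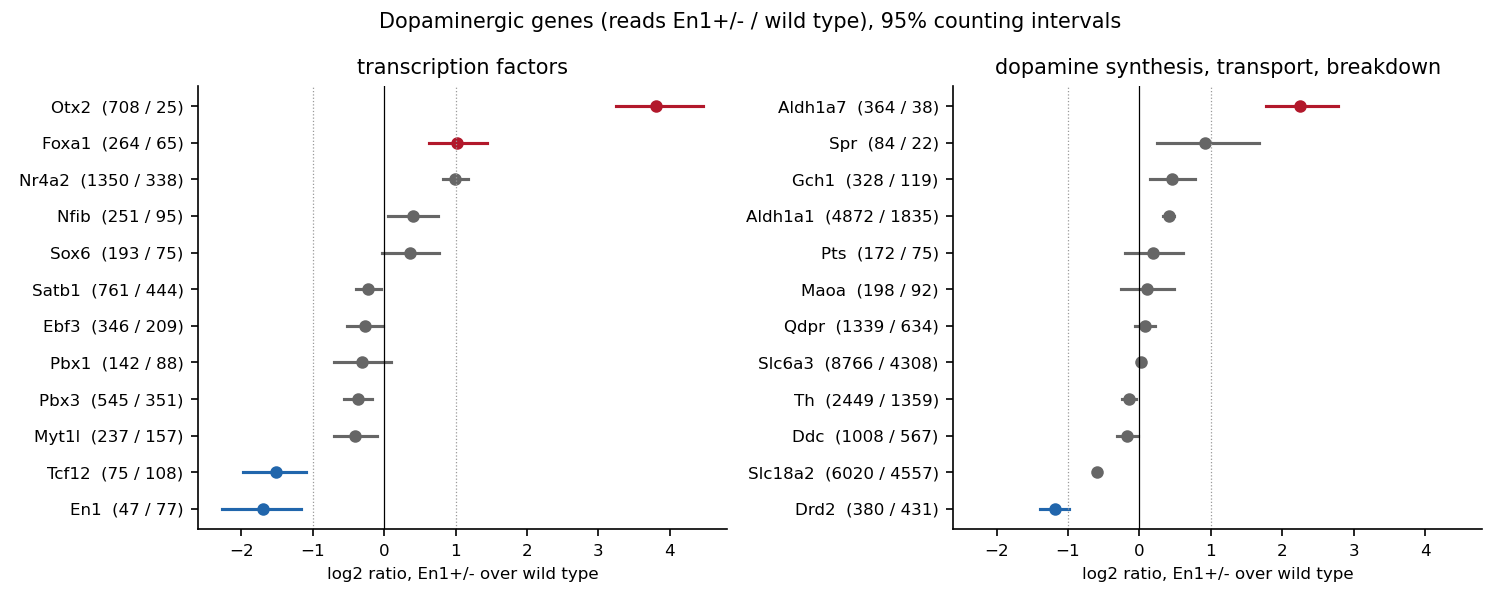
Log2 ratios of En1+/- over wild type (x axis) with 95% counting intervals for the 12 measured midbrain transcription factors (left) and 12 of the 13 measured genes of dopamine synthesis, transport and breakdown (right). Reads in En1+/- and wild type stand beside each symbol, red marks genes past the rule as higher, blue as lower, and dotted lines mark 2-fold. Otx2 lies apart at 3.80, and Th, Ddc and Slc6a3 lie near 0.

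VTA and SNpc markers gave a mixed picture around Otx2. Adcyap1, which encodes the neuropeptide PACAP and is a VTA marker, had 97.1 scaled reads in En1+/-, against 27.2 in wild type, 13.2 in the contralateral and 37.6 in the infused library, at 1.83 (1.17 to 2.60). With 144 reads in En1+/- and 20 in wild type, Adcyap1 reached the minimum of reads through the En1+/- library. Slc17a6, the vesicular glutamate transporter used by VTA neurons that also release glutamate, went the other way. It stood at 76.9 in En1+/-, against 162 in wild type, 122 in the contralateral and 104 in the infused library, at -1.06 (-1.45 to -0.68). Tacr3, a tachykinin receptor gene, was also lower, at 38.4 in En1+/- and 95.1 in wild type (-1.29, -1.83 to -0.77). Calb1, the calcium buffer of VTA and dorsal SNpc neurons, was at -0.29 (-0.69 to 0.12). Of 6 measured VTA markers 2 were higher and 2 lower, so Otx2 and Adcyap1 were the only higher ones. Of 10 SNpc subtype markers Aldh1a7 was higher and Drd2 lower, and the median was -0.05.

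Phf1, Tmem165, Kctd1 and Tmem179 combined ratios near 4 or above with over 1000 reads in the pair. Tmem179, a brain membrane protein gene, held the most reads of the 4. It had 3647 scaled reads in En1+/-, against 247 in wild type, 189 in the contralateral and 119.8 in the infused library. The heterozygous library stood over 10-fold above each of the others, at 3.89 (3.68 to 4.11) from 5406 and 182 reads. The gene lies on GRCm38 chromosome 12 from 112500189 to 112516747, minus strand. Phf1, a Polycomb accessory protein gene on chromosome 17 (26933052 to 26937908, plus strand), had 1095 in En1+/-, against 38.0 in wild type, 59.5 in the contralateral and 114 in the infused library. Its ratio was 4.84 (4.32 to 5.45). It overlaps Cuta, which was itself higher at 1.13 (0.80 to 1.47), and reads of overlapping genes cannot be told apart without the strand used in counting, on which the sources used here are silent. The same limit holds for other named genes that overlap a neighbour. Among them are Hdac7 (with Slc48a1), Irf9 (Rnf31), Tagln (Pcsk7), Plk3 (Tctex1d4), Gss (Acss2), Top2b (Rarb) and Surf1 (Surf2).

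Tmem165, a Golgi ion transporter gene needed for glycosylation, had 1423 scaled reads in En1+/-, against 69.3 in wild type, 75 in the contralateral and 52.5 in the infused library. The ratio of its chosen transcript, with 6 exons, was 4.36 (3.97 to 4.80). Most of the excess lay in a few exons. A transcript of 649 bases and 3 exons, on chromosome 5 from 76199117 to 76204655, held 2010 of the gene's 2109 reads in En1+/- and 7 of 51 in wild type. Kctd1, a transcriptional corepressor gene, had 1619.6 in En1+/-, against 91.0 in wild type, 60.6 in the contralateral and 23.8 in the infused library, at 4.16 (3.81 to 4.54). Its other transcript with 50 or more reads had 15 reads in En1+/- and 41 in wild type, at -2.40 (-3.41 to -1.57). The 2 transcripts of Kctd1 thus differed in opposite directions.

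Several other leading genes act in signalling and the cytoskeleton. Pde3b, a phosphodiesterase gene that limits cyclic AMP, had 399 scaled reads in En1+/-, against 29.9 in wild type, 55.1 in the contralateral and 34.6 in the infused library (3.73, 3.14 to 4.43). Gab2, a docking protein gene of growth factor receptors, had 573 in En1+/-, against 66.6 in wild type, 131 in the contralateral and 205 in the infused library (3.11, 2.70 to 3.56). Dbnl, an actin binding adaptor gene, had 1088 in En1+/- and between 167 and 177 in the 3 other libraries (2.71, 2.45 to 2.99). Gucy1a2, a subunit gene of the receptor for nitric oxide, had 933 in En1+/-, against 220.1 in wild type, 227 in the contralateral and 170.3 in the infused library (2.09, 1.86 to 2.34). In each of these 4 genes the heterozygous library was the highest and the other 3 lay close together or well below it.

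Further leading genes act on chromatin or in protein turnover and traffic. Rere, a nuclear corepressor gene of the atrophin family, had 1239.8 scaled reads in En1+/-, against 156 in wild type, 439 in the contralateral and 308 in the infused library (2.99, 2.73 to 3.28). Wild type was the lowest library, and En1+/- was under 3-fold above the contralateral side. Trrap, a scaffold gene of histone acetyltransferase complexes, had 1122 in En1+/-, against 242 in wild type and about 415 to 419 in both other libraries (2.22, 2.00 to 2.46). Herc4, a ubiquitin ligase gene, was at 3.52 (3.03 to 4.10), Arfip1, an Arf binding protein gene, at 3.32 (2.70 to 4.07), and D16Ertd472e at 3.63 (3.05 to 4.32). Of the 1365 higher genes, 1130 (82.8%) stood above all 3 other captured libraries, as did 36.2% of all measured genes, and 634 (46.4%) stood at least 2-fold above each of them, beside 8.16% of measured genes. The wild type library is one of the 3, so part of these counts follows from the rule. The 634 are also all of the measured genes at least 2-fold above each, so that comparison was set by the rule.

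**Figure D4:**
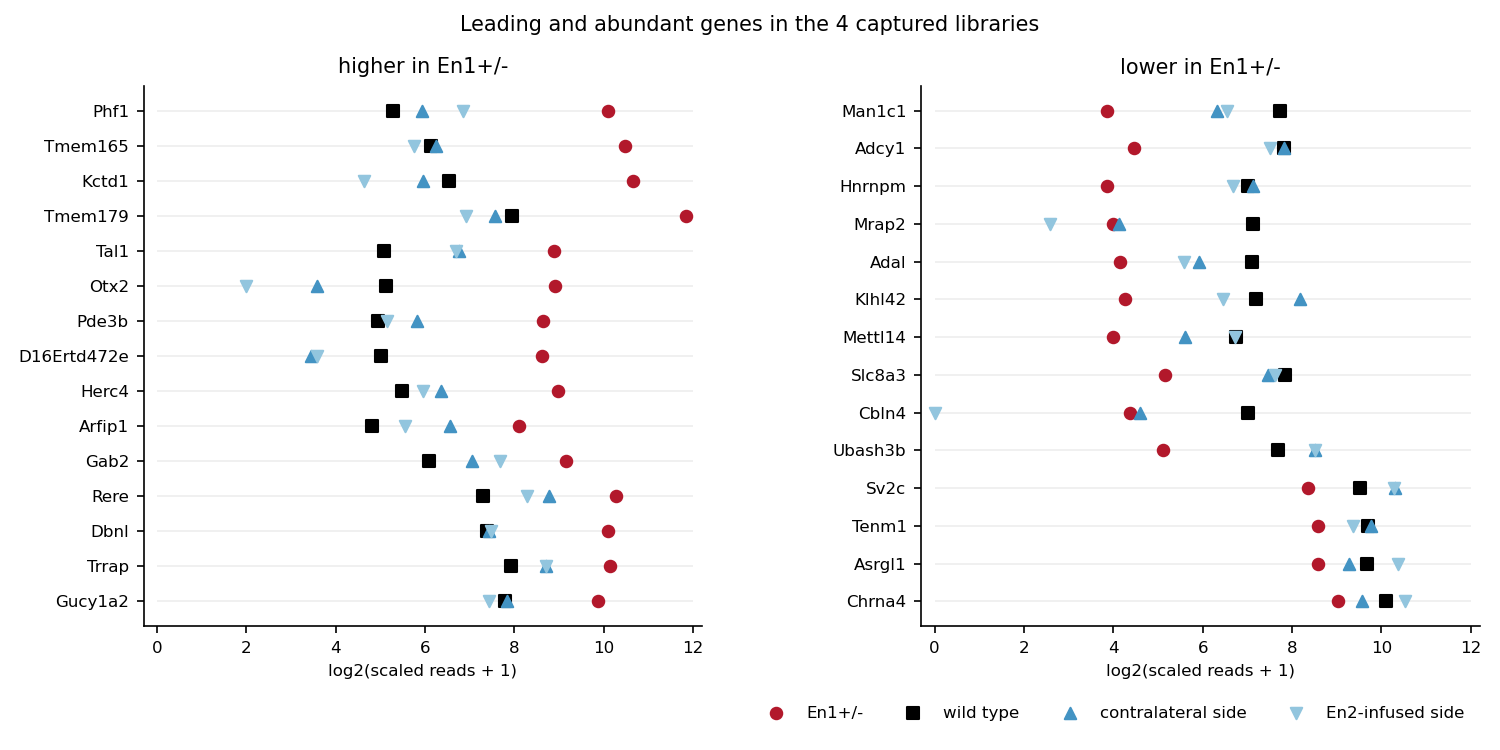
Levels of leading and abundant genes in the 4 captured libraries, as log2 of scaled reads plus 1 (x axis), with genes higher in En1+/- on the left and lower on the right. Each symbol is 1 library (red circle En1+/-, black square wild type, triangles the contralateral and infused sides). On the left the red circles stand apart from the other 3 symbols, while on the right Mrap2 and Cbln4 have another library close to En1+/-.

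Leading genes on the lower side held fewer reads. Man1c1, a Golgi mannosidase gene, had 13.5 scaled reads in En1+/-, against 212 in wild type, 78.3 in the contralateral and 92.1 in the infused library. It was lowest in En1+/- and highest in wild type, at -3.92 (-4.71 to -3.29). Adcy1, the calcium-stimulated adenylyl cyclase gene, had 20.9 in En1+/-, against 224 in wild type, 224 in the contralateral and 182 in the infused library. The 3 libraries with both En1 copies lay together, and the ratio was -3.38 (-4.02 to -2.85). Slc8a3, a sodium and calcium exchanger gene, had 34.4 in En1+/-, against 227 in wild type, 174 in the contralateral and 196 in the infused library (-2.69, -3.19 to -2.25). Ubash3b, a phosphatase gene, was likewise lowest in En1+/-, with 33.7 in En1+/-, against 205 in wild type, 365 in the contralateral and 366 in the infused library (-2.58, -3.09 to -2.12).

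Not all low values were particular to the heterozygous library. Mrap2, an accessory protein gene of melanocortin receptors, had 14.8 scaled reads in En1+/-, against 139 in wild type, 16.5 in the contralateral and 4.95 in the infused library (-3.17, -3.95 to -2.54). Cbln4, a synapse organizer gene, had 19.6 in En1+/-, against 129 in wild type, 23.2 in the contralateral and 0 in the infused library (-2.68, -3.36 to -2.10). For Mrap2 and Cbln4 the wild type library was the one that stood apart. Hnrnpm (-3.20), Adal (-2.98), Klhl42 (-2.95) and Mettl14 (-2.79), genes of splicing, nucleoside metabolism, ubiquitin ligation and RNA methylation, were lowest in En1+/- in each case. Of the 586 lower genes, 453 (77.3%) stood below all 3 other libraries, beside 22.9% of measured genes, and 209 (35.7%) at least 2-fold below each, beside 2.73%. Wild type is again one of the 3, so part of these counts follows from the rule. Only 212 measured genes stood at least 2-fold below each, so the second comparison was nearly set by it.

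Only 5 lower genes had 1000 or more reads in the pair, against 62 higher ones. That cutoff is in raw reads, of which an unchanged gene had 2 times as many in En1+/-. It thus admits genes higher in En1+/- more readily, and the contrast is in part set by it. With 100 reads asked of wild type alone, 146 genes were higher and 310 lower. The mitochondrial valine tRNA, mt-Tv, had 11664 reads in En1+/- and 29464 in wild type, a ratio of -2.34. Sv2c, a synaptic vesicle protein gene enriched in dopaminergic neurons, had 326 scaled reads in En1+/-, against 728 in wild type, 1267 in the contralateral and 1241 in the infused library (-1.15, -1.33 to -0.97). Chrna4, the nicotinic receptor subunit gene of these neurons, had 521 in En1+/-, against 1089 in wild type, 759.6 in the contralateral and 1483 in the infused library (-1.05, -1.20 to -0.91). Tenm1, a synaptic adhesion gene, and Asrgl1, an asparaginase gene, were both at -1.09. All 4 of these nuclear genes were lowest in En1+/-, and none stayed past 2-fold with library totals as the scale. A 3-exon transcript of Tenm1 differed in sign from its chosen one, at 1.14 (0.40 to 1.98).

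Ion channels, transporters and synaptic genes mostly did not pass the rule, as was so for 5823 of all 7774 measured genes. Of 24 measured pacemaking channels, Scn1a and Cacna1c were higher and Scn3a lower. Cacna1c was at 75.5 scaled reads in En1+/-, against 27.2 in wild type, 69.5 in the contralateral and 138 in the infused library, so En1+/- was not the highest. Scn1a, a sodium channel gene, had 1347 scaled reads in En1+/-, against 675 in wild type, 665 in the contralateral and 545 in the infused library (1.01, 0.86 to 1.15). Scn3a, a second sodium channel gene, had 154 in En1+/-, against 393 in wild type, 345 in the contralateral and 471 in the infused library (-1.33, -1.59 to -1.08). The 2 sodium channels thus stood on opposite sides of all 3 other libraries. Of 35 synaptic vesicle genes, 4 were higher (Stx1a, Syn2, Unc13b and Sv2a) and Sv2c was lower. Stx1a, with 127 reads in En1+/- and 17 in wild type, and Unc13b, with 121 and 18, reached the minimum of reads through En1+/-. Sv2a, the paralog of Sv2c, had 1647 in En1+/-, against 793 in wild type, 841 in the contralateral and 1302 in the infused library (1.06, 0.93 to 1.20). With totals outside mitochondrial and ribosomal RNA as the scale, Scn1a was at 0.89 and Sv2a at 0.95, short of the rule. The ratio of the third paralog, Sv2b, was -0.67 (-0.89 to -0.45).

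Axon guidance and trophic receptor genes were set out because dopaminergic axons and survival depend on them. Of 25 measured guidance genes none was higher and 3 were lower, beside 17.6% higher and 7.54% lower over all measured genes. Ntn1, which encodes the guidance cue netrin 1, had 30.4 scaled reads in En1+/-, against 119.5 in wild type, 152 in the contralateral and 68.3 in the infused library (-1.95, -2.52 to -1.43). Robo2, a receptor gene for Slit cues, had 136 in En1+/-, against 284 in wild type, 294 in the contralateral and 361 in the infused library (-1.05, -1.34 to -0.76). Its 6 transcripts with 50 reads or more lay between -1.48 and 1.27. Ephb1, an ephrin receptor gene, was at -1.23 (-1.55 to -0.91), with a level of 105 in En1+/-, 249 in wild type and 131 on the contralateral side. The median of the guidance list was 0.06, near that of all genes. Cntfr, the receptor gene for ciliary neurotrophic factor, was the one of 14 trophic receptors past the rule, with 192 in En1+/-, against 76.1 in wild type, 107 in the contralateral and 25.7 in the infused library (1.34, 0.93 to 1.79). None of 31 cytoskeletal genes passed the rule, and Map1b, a microtubule gene, was at 0.01 (-0.03 to 0.05) from 14957 and 7428 reads.

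Parkinson disease genes held 1 member past the rule among 22 measured, Lrrk2, a kinase gene. It had 192 scaled reads in En1+/-, against 40.8 in wild type, 48.5 in the contralateral and 32.7 in the infused library. The heterozygous library was over 3-fold above each other one, at 2.23 (1.70 to 2.84). The median was 0.06.

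Complex I was of interest because Engrailed protein is known to raise translation of its subunits Ndufs1 and Ndufs3. Of 34 measured nuclear genes of complex I none was higher and 3 were lower. Over all measured genes 17.6% were higher and 7.54% lower. Ndufv2, a core subunit gene, had 119 scaled reads in En1+/-, against 311 in wild type, 167 in the contralateral and 185 in the infused library (-1.38, -1.67 to -1.09). The assembly factor Ndufaf2 was at -1.39 (-1.87 to -0.93) and the subunit Ndufa9 at -1.07 (-1.41 to -0.74). Wild type was the highest library for all 3. Ndufs1 had 227 in En1+/-, against 219 in wild type (0.07, -0.21 to 0.35), and Ndufs3 had 0 reads in En1+/- and 2 in wild type in its chosen transcript. The list's median was -0.11, and its 43 genes summed to 3516 CPM in En1+/-, against 4149 in wild type, 2747 in the contralateral and 2634 in the infused library. The heterozygous library was thus below wild type and above the other 2. Of 35 genes of complexes II to V, Uqcrc1, a core subunit gene of complex III, was higher (1.13, 0.94 to 1.32), and Surf1 (-2.57, -3.27 to -1.97) and Cox10 (-1.46, -2.06 to -0.91), assembly genes of complex IV, were lower.

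The 9 measured mitochondrially encoded genes of the list all lay below 0 without passing the rule. Their ratios lay between -0.97 for mt-Rnr2, the large ribosomal RNA, and -0.22 for mt-Co1, a subunit gene of complex IV. With library totals as the scale, which this RNA itself dominates, all would move up by 0.60, and mt-Co1, the complex I gene mt-Nd4 and the complex III gene mt-Cytb would lie above 0. Outside the list, the mitochondrial transfer RNA genes mt-Tv (-2.34), mt-Tc (-1.12) and mt-Ti (-1.09) passed the rule as lower.

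Antioxidant genes moved in both directions, with 3 higher and 3 lower of 28 measured. Over all measured genes 17.6% were higher and 7.54% lower. Sod2, the mitochondrial superoxide dismutase gene, had 130.2 scaled reads in En1+/-, against 357 in wild type, 294 in the contralateral and 234 in the infused library (-1.44, -1.72 to -1.17). Gclc and Gss, which carry out the 2 steps of glutathione synthesis, were at -1.88 (-2.42 to -1.38) and -1.77 (-2.30 to -1.29). All 3 were lowest in En1+/-. Sod3, the secreted superoxide dismutase gene, had 156 reads in En1+/-, 2 in wild type, 1 in the contralateral and 0 in the infused library, a ratio of 5.06 (3.41 to 8.34). Gpx3, a secreted peroxidase gene, was at 2.02 (1.38 to 2.77), and Prdx4, a peroxidase gene of the endoplasmic reticulum, at 2.79 (1.76 to 4.2). Gpx3 had 173 reads in En1+/- and 21 in wild type, and Prdx4 had 101 and 7. All 3 higher genes thus reached the minimum of 100 reads through the En1+/- library.

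The p53 response, which follows DNA damage, had 6 of 19 measured members higher and none lower, beside 17.6% higher over all measured genes. Cdkn1a encodes p21, the inhibitor of cyclin-dependent kinases and a main target of p53. It had 525 scaled reads in En1+/-, against 171 in wild type, 82.7 in the contralateral and 41.6 in the infused library. The heterozygous library was the highest by over 3-fold, at 1.62 (1.35 to 1.91). Sesn1, a stress-induced target of p53, had 306 in En1+/-, against 117 in wild type, 108 in the contralateral and 157 in the infused library (1.40, 1.06 to 1.75). Perp (1.87, 1.30 to 2.52) and Plk3 (2.17, 1.48 to 2.98) were also highest in En1+/-. Xpc, a damage sensor gene of nucleotide excision repair, and Aen, an exonuclease gene, had 195 and 107 reads in En1+/- but 4 and 2 in wild type, at 4.49 (3.23 to 6.50) and 4.52 (2.85 to 7.81). Other members went the other way without passing the rule. Ddb2 (-0.95, -1.47 to -0.45), Tigar (-0.86, -1.35 to -0.37) and Ccng1 (-0.66, -0.90 to -0.42) were each lowest in En1+/-. Of the 19 measured, 8 stood above all 3 other captured libraries and 5 below all 3. Trp53 itself had 38 reads in each library, under the minimum. The list's median was 0.66, but -0.09 when 20 reads were asked of each library, which lets in genes with under 100 reads in the pair and drops Xpc, Aen and Plk3. Casp9, which starts the caspase cascade of cell death, was the one of 12 measured apoptosis genes past the rule. It had 477 in En1+/-, against 67.9 in wild type, 88.2 in the contralateral and 107 in the infused library (2.81, 2.41 to 3.27), and it overlaps Cela2a and Ctrc.

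DNA repair genes were 4 higher and 2 lower of 29 measured, beside 17.6% higher and 7.54% lower over all measured genes. Pms2, a mismatch repair gene, had 161 scaled reads in En1+/-, against 10.9 in wild type, 12.1 in the contralateral and 11.9 in the infused library (3.84, 2.90 to 5.13). Xpa, of nucleotide excision repair, was at 3.32 (2.14 to 5.06) from 106 and 5 reads. Top2b, a topoisomerase gene, had 117 in En1+/-, against 363 in wild type, 194 in the contralateral and 238 in the infused library (-1.62, -1.91 to -1.34). Pms2, with 239 reads in En1+/- and 8 in wild type, and Xpa reached the minimum of 100 through the En1+/- library. The median of the list was 0.25, but -0.02 with no minimum of reads.

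Chromatin modifiers and remodelers were 14 higher and 8 lower of 81 measured, shares close to those of all genes, with a median of 0.35. The higher side held 5 histone deacetylases of class II, a group picked after the values were seen. Hdac7 had 213 scaled reads in En1+/-, against 23.1 in wild type, 36.4 in the contralateral and 47.5 in the infused library (3.19, 2.51 to 4.01). Hdac5 had 461 in En1+/-, against 178 in wild type, 201 in the contralateral and 68.3 in the infused library (1.38, 1.11 to 1.66). Hdac9 had 370.3 in En1+/-, against 114 in wild type, 181 in the contralateral and 209.9 in the infused library (1.70, 1.37 to 2.06). Hdac4 (1.25, 0.60 to 1.97) and Hdac6 (2.37, 1.71 to 3.15) passed the rule too, the En1+/- library being highest for all 5. Hdac10, the remaining member of the class, had 27 reads in En1+/- and 38 in wild type and was not measured. On the lower side were Smarcb1, a core subunit gene of the SWI/SNF remodeler (-1.66, -2.06 to -1.28), Setd5 (-1.56, -2.01 to -1.15) and the DNA demethylation genes Tet2 (-1.56, -2.10 to -1.07) and Tet1 (-1.07).

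Genes of the nuclear lamina and nucleolus were 5 higher and 2 lower of 14 measured, beside 17.6% higher and 7.54% lower over all measured genes. Sun2, which ties the nucleus to the cytoskeleton, had 565 scaled reads in En1+/-, against 193 in wild type, 80.5 in the contralateral and 57.4 in the infused library (1.56, 1.30 to 1.83). Rrn3, an initiation factor gene of ribosomal RNA synthesis, was at 1.64 (1.32 to 1.97), and Lemd3, an inner nuclear membrane gene, at 1.89 (1.33 to 2.53). Emd, which encodes emerin, had 54.0 in En1+/-, against 183 in wild type, 110.2 in the contralateral and 59.4 in the infused library (-1.75, -2.17 to -1.35). That was its chosen transcript, and its 5 others with 50 reads or more lay between 0.24 and 0.64, all with intervals that span 0. The sign for Tmpo, a lamina protein gene, depended on the transcript, at 1.84 (1.10 to 2.71) in the chosen one and -0.74 in the one with most reads in the pair. The median was 0.38, and -0.16 with 20 reads asked of each library.

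Signalling to translation was looked at because Engrailed acts there. Of 26 measured genes of mTOR signalling and translation initiation, there were 6 higher and 1 lower, and the median was 0.40. Over all measured genes 17.6% were higher and 7.54% lower. Tsc1, the scaffold of the complex that restrains mTOR, had 391 scaled reads in En1+/-, against 80.1 in wild type, 123 in the contralateral and 132 in the infused library (2.29, 1.91 to 2.71). Rheb, the small GTPase that activates mTOR, had 124 in En1+/-, against 282 in wild type, 118 in the contralateral and 95 in the infused library (-1.17, -1.47 to -0.88), so that wild type was the library apart. Mtor itself had 297 in En1+/-, against 594 in wild type, 389 in the contralateral and 366 in the infused library (-0.99, -1.18 to -0.79), just short of the rule. Rptor, its partner in complex 1, was at 1.46 (1.13 to 1.82). Eif4e, the cap binding factor that Engrailed binds, had 92 reads in En1+/- and 13 in wild type (1.8, 0.98 to 2.79), but its scaled level of 62.1 in En1+/- lay below the contralateral and infused sides at 89.3 and 145. Eif4ebp2, an inhibitor of it, was at 2.12 (1.60 to 2.71), with 190 in En1+/-, against 43.5 in wild type, 149 in the contralateral and 306 in the infused library, so that wild type was again the lowest and En1+/- not the highest. None of 12 measured ribosomal protein genes passed the rule.

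In the unfolded protein, heat shock and lysosome lists 3, 1 and 5 members passed the rule in either direction, smaller shares than the 25.1% of all measured genes. Of 22 genes of the unfolded protein response, Eif2ak3, its kinase PERK, was higher (2.00, 1.27 to 2.87), but its level of 87.7 in En1+/- was below the 122 and 117 of the contralateral and infused sides. Pdia4, a folding enzyme gene of the endoplasmic reticulum (-2.29, -2.89 to -1.75), and Ppp1r15b, a phosphatase subunit gene (-1.74, -2.18 to -1.32), were lower. Among 19 heat shock genes Hsf1, their main transcription factor, was higher at 1.8 (1.14 to 2.57), from 141 and 20 reads. Of 52 lysosome and autophagy genes 4 were higher and 1 lower. Atg9a, the membrane protein gene that seeds autophagosomes, had 556 scaled reads in En1+/-, against 193 in wild type, 179 in the contralateral and 141 in the infused library (1.53, 1.28 to 1.8). Tfe3, a transcription factor of lysosomal genes, was at 1.75 (1.15 to 2.43), but its level of 115 in En1+/- was below the 133 of the contralateral side. Of 5 measured genes of cytokine and interferon signalling, 2 were higher, the interferon pathway genes Stat2 (1.42, 0.93 to 1.95) and Irf9 (4.26, 2.84 to 6.71, from 128 and 3 reads), and 1 was lower. The level of Irf9 was 86.3 in En1+/- and 95 on the infused side. No gene of the 4 measured immediate early genes or the 4 nuclear long RNAs passed the rule.

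**Figure D5:**
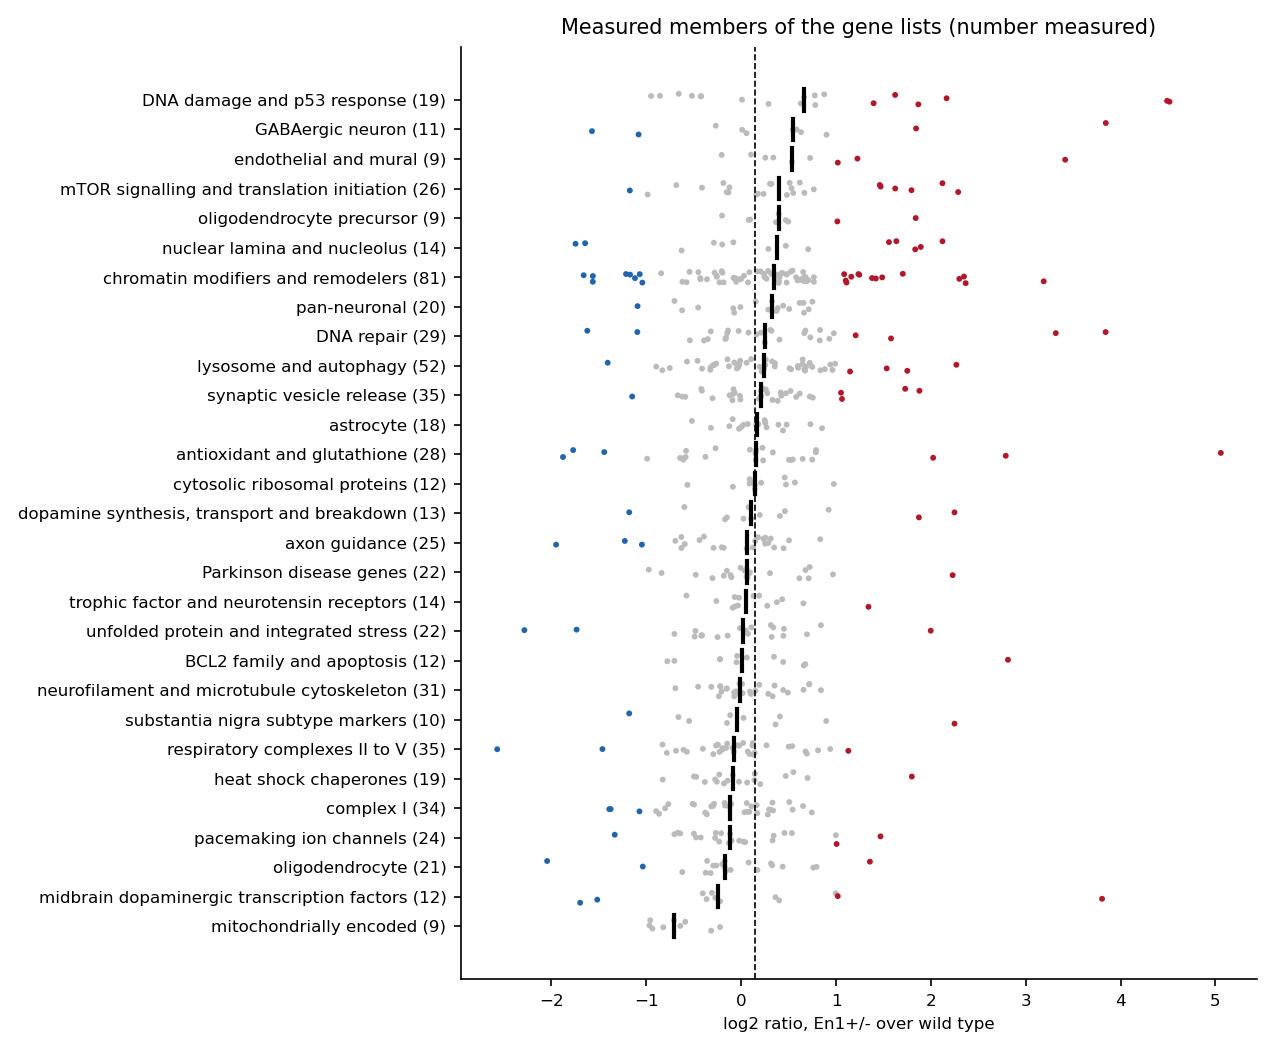
Log2 ratios of En1+/- over wild type (x axis) for the members of each gene list with 9 or more measured, ordered by median. Points are genes (red past the rule as higher, blue as lower, grey neither), black bars are list medians, the dashed line is the median of all measured genes at 0.14, and numbers measured are in parentheses. The p53 list has the highest median, 0.66, and the mitochondrially encoded genes the lowest, -0.71.

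Markers of other cells were present in both libraries, so the captured material did not hold RNA of dopaminergic neurons alone. The 21 oligodendrocyte genes summed to 27715 CPM in En1+/-, against 32579 in wild type, 22372 in the contralateral and 23113 in the infused library. Gjb1 was higher (1.36) and Cldn11 (-1.04) and Opalin (-2.05) were lower, while Mbp was at -0.11 (-0.14 to -0.09) from 37154 and 20070 reads. Pdgfra, the defining receptor gene of oligodendrocyte precursors, had 484 scaled reads in En1+/-, against 136 in wild type, 119 in the contralateral and 140 in the infused library (1.84, 1.54 to 2.16). It stood over 3-fold above each other library, while the precursor list as a whole had 2735 CPM in En1+/- and 2510 in wild type.

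None of 18 astrocyte genes passed the rule, and their sum was 10366 CPM in En1+/- and 10133 in wild type. Microglia genes summed to 600 in En1+/- and 662 in wild type, with Tmem119 higher (1.60, 1.16 to 2.07) of 7 measured. Endothelial and mural genes had 3 higher of 9, Tagln, Abcc9 and Slco1a4, with 1481.5 CPM in En1+/- and 1310 in wild type. Slco1a4 was at 1.02, and at 0.90 with totals outside mitochondrial and ribosomal RNA as the scale, short of the rule. Tph2, a defining serotonergic marker, and the globin genes Hba-a1 and Hba-a2 had 0 reads in both. The blood list as a whole was not at 0, with 21.7 CPM in En1+/- and 24.5 in wild type, though none of its genes was measured.

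GABAergic neurons lie in and beside the SNpc. Their 15 genes summed to 3453 CPM in En1+/-, against 2609 in wild type, 2163 in the contralateral and 2301 in the infused library, the En1+/- library being the highest. Tal1, a transcription factor that specifies GABAergic neurons of the midbrain, had 472 scaled reads in En1+/-, against 32.6 in wild type, 108 in the contralateral and 102 in the infused library (3.84, 3.28 to 4.52). Pnoc, which encodes the neuropeptide nociceptin, had 219 in En1+/-, against 61.1 in wild type, 24.3 in the contralateral and 21.8 in the infused library (1.84, 1.40 to 2.34). Slc32a1, the vesicular GABA transporter gene, was at 0.90 (0.68 to 1.13), Gad2, a GABA synthesis enzyme gene, at 0.58 (0.48 to 0.69) and Gad1, its partner, at 0.06 (-0.08 to 0.19). Calb2 (-1.57) and Foxp2 (-1.08) were lower. Of 11 measured, there were 2 higher and 2 lower, and the median was 0.54. Otx2, Tal1 and Pnoc are genes that differ between cell groups of the midbrain, and the part of cell makeup in any ratio here was not tested.

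The pan-neuronal list had 1 of 20 members past the rule, Elavl4 (-1.09, -1.31 to -0.88), and summed to 20287 CPM in En1+/-, against 17900 in wild type, 15084 in the contralateral and 13275 in the infused library. The Y-linked genes Ddx3y (-1.42, -1.75 to -1.10) and Eif2s3y (-1.11, -1.67 to -0.58) were lower in En1+/-, and Kdm5d (-0.87, -1.28 to -0.47) and Uty (-0.11, -0.59 to 0.39) did not pass the rule. Xist, the RNA of the silenced X chromosome, had 0 reads in all 4 captured libraries, and each of the 4 libraries held Y-linked reads.

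The authors' deposited table compares the same libraries transcript by transcript, with adjusted p-values made without replicates. Of its 62202 transcripts, 61 had an adjusted p under 0.05 in the authors' deposited table, 60 of them higher in En1+/-, from 33 genes. The single lower one was mt-Tv, with an adjusted p of 1.23e-07 in the authors' deposited table. The lowest value, 1.81e-14 for a 3-exon transcript of Tmem165, and 2.99e-11 for Tmem179 also come from the authors' deposited table. In the authors' deposited table the chosen transcript of Otx2 had an adjusted p of 0.0206. En1 and Drd2 had log2 fold changes of -1.71 and -1.18, each with an adjusted p of 1, in the authors' deposited table.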

How the data were processed

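Total RNA of laser-captured neurons stained for tyrosine hydroxylase was extracted with a Qiagen lipid tissue kit and sequenced after Illumina library preparation, per the labels' protocols. The build mm10, DESeq 1.8.3, HTSeq and Bowtie appear in the submitters' processing notes, with no roles given. The unit deposited by the authors is the raw count of reads for each of 95533 transcripts (35049 genes), and 1 read can enter several transcripts. Their comparison table, also deposited by the authors, gives log2 fold changes and p-values, and its 2 mean columns were not used. Transcripts with no gene identifier (9402, with 2.93% to 4.78% of the counts per library) were left out.

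Each gene was represented by the transcript with most reads over the 4 captured libraries. The pair was scaled by the median of ratios, 0.5 was added, and log2 ratios were taken with Clopper-Pearson intervals (Python 3.11.15, scipy 1.17.1). List levels are CPM over the counts of these chosen transcripts, with mitochondrial and ribosomal RNA genes set aside. Gene symbols were taken from an identifier table (33725 genes) or the files, and positions from GENCODE M21 on GRCm38 (7712 of 7774 measured genes). Promoter sequences are from RefSeq. Where 2 identifiers carried 1 symbol, the one with a position was used.

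The text names, per direction, up to 12 genes with the largest interval end nearest 0 and 20 reads or more in both libraries, up to 8 with 1000 reads or more (both without mitochondrial and ribosomal RNA genes and clone-like symbols), En1 and En2, members of 39 gene lists with the highest and lowest ratios, and genes within 5 Mb of En1. Values of other members of the lists are given as counts or where a reader would look for the gene. Not every gene the rule takes is printed, and some are not reported here. The members and lists were chosen with earlier results of these data known. The steps were tested on simulated data. Alternatives were other scalings (library totals, totals outside mitochondrial and ribosomal RNA, TMM from edgeR 4.0.16), other minimum reads, other transcript choices, 5 in place of 0.5 added and a larger ratio. Replicates were not available, so precision comes from read numbers alone.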

Additional observations from a re-analysis of the deposited data

How the results depend on the processing

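Counts of genes higher and lower in En1+/- (1365 and 586) depended on the scale, the minimum of reads and the size of ratio asked. Library totals gave 2895 higher and 185 lower, a minimum of 20 reads in 1 library gave 2318 and 1632, no minimum 2537 and 2841, and a minimum of 500 reads in the pair 245 and 33. A minimum of 20 reads in both libraries gave 985 higher and 1005 lower, and the sum over transcripts 1763 and 1050. A log2 ratio of at least 2 gave 409 and 92. Chosen after seeing the data, a minimum of 100 reads in wild type gave 146 higher and 310 lower, and 2-fold beyond each of the 3 other captured libraries 634 and 209. Fewer genes, or genes picked by wild type alone, enter under several of these by construction. TMM, totals outside mitochondrial and ribosomal RNA, 5 added, the transcript with most reads in the pair, 100 scaled reads, and 2-fold in every transcript with 50 reads or more (added after seeing the data) kept both counts within 1.5 times, at 1163 to 1377 higher and 456 to 726 lower.

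En1 was lower under every scaling and transcript choice tried, from -1.81 to -1.10, the last with library totals, which shift all ratios up by 0.60. Among named genes past the rule, all 62 higher ones stayed past 2-fold with library totals and 57 with totals outside mitochondrial and ribosomal RNA, and 24 and 53 of 53 lower ones did. The sign turned for Tmpo, from its main ratio of 1.84 to -0.74 in the transcript with most reads in the pair and to -0.34 in the sum over transcripts, because its transcripts differ in sign. Medians of 10 of 35 lists changed sign with library totals, of 6 with totals outside mitochondrial and ribosomal RNA and of none with TMM. They did so for 6 with 20 reads in both libraries, 6 with no minimum, 4 with 20 reads in 1 library, 4 with the sum over transcripts, 2 with 100 scaled reads and 4 of 33 with 500 reads in the pair. No paired analysis was possible because each group is 1 library. Depth limits genes with under 100 reads in the pair, such as Pitx3 and Ndufs3.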

Other observations

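Genes of the same region of chromosome 1 as En1 were listed because that region holds the altered allele. Within 5 Mb of En1, 9 other genes were measured. Tsn, a nucleic acid binding protein gene, had 146 scaled reads in En1+/-, against 318 in wild type, 454 in the contralateral and 319.8 in the infused library (-1.11, -1.38 to -0.84). Its neighbour Nifk, a nucleolar protein gene, had 41.8 in En1+/-, against 122 in wild type, 137 in the contralateral and 108 in the infused library (-1.53, -2.03 to -1.05). Both were lowest in En1+/-, and the 3 other libraries were at least 2-fold above it. Ccdc93, a gene of endosomal sorting, was higher at 2.34 (1.40 to 3.56), from 94 and 9 reads. Tsn and Nifk lie at -2291 and -2269 kb from En1 and Ccdc93 at 823 kb, where minus marks lower coordinates. The nearest measured genes, Dbi (-481 kb, ratio 0.16), Insig2 (696 kb, -0.73) and Ptpn4 (-765 kb, -0.37), did not pass the rule. The median of the 9 was -0.37, beside 0.09 for the 458 measured genes of chromosome 1, of which 66 were higher and 30 lower.

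Ratios varied a little with transcript length. The share of genes higher in En1+/- was 19.9% in the shortest of 5 equal bins of transcripts (up to 2001 bases) and 12.1% in the longest (5702 bases or more), and the share lower was 6.19% and 8.36% in the same bins. Median ratios in those bins were 0.20 and 0.04.

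Transcripts of a gene did not always go together. Of 800 higher genes with several transcripts of 50 reads or more, 599 (74.9%) had all of them past 2-fold and 72 (9%) had one of the opposite sign. Of 332 such lower genes, 202 (60.8%) had all past 2-fold and 46 (13.9%) had one of the opposite sign. Trrap shows the range within 1 gene, with a ratio of 3.35 in a transcript of 29 exons that held 1370 reads in En1+/- and 67 in wild type, and 0.28 in one of 12 exons at its start with 56 and 23 reads.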
